A study of Mus musculus with 6 samples.

Results

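The 7 genes described here encode subunits of the GABA-A receptor: Gabra2, Gabra3 and Gabra5 (alpha subunits), Gabrb1 and Gabrb2 (beta subunits), Gabrg1 (a gamma subunit) and Gabrq (the theta subunit). They were chosen by name, with earlier results of these data known. They are the rows of the deposited gene table whose Ensembl identifiers map to these symbols, 7 of 54532 genes in that table. All 7 were measured in dorsal root ganglia, the ganglia that hold the cell bodies of sensory neurons, taken at postnatal 8 weeks from C57BL/6 mice. The Hdac2 cKO group (3 libraries) carried Adv-Cre, Cre under the promoter of Avil (advillin), a gene of primary sensory neurons, with floxed Hdac2 (Adv-Cre+/hdac2-flop++). The WT group (3 libraries) consisted of littermates that carried the same floxed Hdac2 (hdac2-flop++) and no Cre, so Cre itself also differed between the groups. The labels do not say whether a library came from 1 mouse or from several, so each p-value reflects only how far these libraries differ, which may be technical. The question behind the comparison is which transcripts the histone deacetylase HDAC2 holds down in primary sensory neurons, in the setting of chronic pain.

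GABA-A receptors are chloride channels opened by the transmitter GABA and built from subunits that surround a central pore. GABA binds where a beta subunit meets an alpha subunit, and benzodiazepines bind where an alpha subunit meets a gamma subunit, so the subunits present set the pharmacology of the receptor. Sensory neurons of the dorsal root ganglion keep a high internal chloride level, and GABA depolarises their spinal terminals, which dampens transmitter release there.

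All levels below are normalised read counts, that is, reads per gene divided by 1 size factor per library. Differences are log2 fold changes of Hdac2 cKO over WT, taken after adding 1 to each value. Reads in genes ranged from 27787407 to 42070531 in Hdac2 cKO libraries and from 18943595 to 31338593 in WT libraries. Hdac2 itself averaged 469 ± 85.9 normalised read counts in Hdac2 cKO and 2676 ± 899 in WT (SD, n = 3 each). Its log2 fold change was -2.47 (limma adjusted p = 0.927), so limma did not call even the targeted gene. WT 3 stood apart from the other libraries: the SD of its deviations from the gene means was 1.36 on the log2 scale over 18410 tested genes, against 0.585 to 0.688 in the other 5. WT 3 was the lowest library for 40.4% and the highest for 30.5% of tested genes, and it was the lowest for 4 and the highest for 1 of the 7 subunit genes. Fold changes of the subunit genes and of the genes named from the GABA lists are therefore also given without WT 3. Sensory neuron markers were present in every library, with the 11 listed genes summing to 295925 to 370883 in Hdac2 cKO and 285040 to 430334 in WT. Their median log2 fold change was -0.01 (0.04 without WT 3), but single markers differed. Syt1, Elavl4, Isl1 and Stmn2 were higher in Hdac2 cKO without overlap, by 0.30 to 0.45 on the log2 scale. Without WT 3 these differences were 0.42, 0.44, 0.36 and 0.14. Of all tested genes, 4.63% were higher and 3.91% lower without overlap. Avil, whose promoter drives the Cre, was lower without overlap (-0.68, SE 0.21; -0.83 without WT 3). Of the 11 markers limma called 0, and 2 with array weights, a setting that called 3.08% of all tested genes. The part of these markers in the subunit results was not tested. The genes are located, on GRCm38 (the assembly of mm10) with GENCODE release M21, on 4 chromosomes. Gabrg1 (chr5:70751047-70842617, minus strand), Gabra2 (chr5:70957597-71095849, minus strand) and Gabrb1 (chr5:71658113-72149037, plus strand) lie along chromosome 5. Gabra5 lies at chr7:57407672-57510059 (minus strand) and Gabrb2 at chr11:42419757-42629028 (plus strand). Gabra3 (chrX:72432681-72656848, minus strand) and Gabrq (chrX:72825178-72842602, plus strand) are neighbours, 168 kb apart.

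The sequence around the annotated start sites differed among the subunit genes. The windows below, from RefSeq on GRCm38.p6, run 250 bases before to 50 after the start, 5′ to 3′. Gabra3 and Gabrq are shown because their groups did not overlap, and Gabra2 because it had the widest spread among the members detected in every library. Capitals mark the searched letters on either strand: GGGCGG (the GC box), CCAAT (the CCAAT box) and TATAAA (the TATA motif).
Gabra3: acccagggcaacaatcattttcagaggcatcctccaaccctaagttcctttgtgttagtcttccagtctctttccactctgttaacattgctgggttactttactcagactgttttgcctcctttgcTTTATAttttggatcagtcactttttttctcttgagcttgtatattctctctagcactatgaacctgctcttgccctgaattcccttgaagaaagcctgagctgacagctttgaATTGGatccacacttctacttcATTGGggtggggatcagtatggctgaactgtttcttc
Gabrq: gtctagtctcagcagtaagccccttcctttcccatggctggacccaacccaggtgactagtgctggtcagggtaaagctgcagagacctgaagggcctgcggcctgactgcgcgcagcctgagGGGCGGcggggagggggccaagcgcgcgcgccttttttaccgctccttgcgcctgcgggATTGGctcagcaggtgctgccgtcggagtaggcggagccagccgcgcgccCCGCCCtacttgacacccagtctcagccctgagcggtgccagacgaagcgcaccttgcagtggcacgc
Gabra2: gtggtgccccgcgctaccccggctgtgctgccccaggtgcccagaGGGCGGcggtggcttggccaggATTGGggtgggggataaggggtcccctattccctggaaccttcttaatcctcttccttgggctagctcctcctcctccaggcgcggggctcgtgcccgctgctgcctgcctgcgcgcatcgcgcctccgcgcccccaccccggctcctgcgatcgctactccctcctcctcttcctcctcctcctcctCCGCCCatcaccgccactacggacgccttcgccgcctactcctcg
The Gabra3 window (chrX:72656870-72657169, minus strand) held 0 CpG dinucleotides and had a GC content of 43.0%. The Gabrq window (chrX:72824928-72825227, plus strand) held 23 CpG at 67.0% GC, and the Gabra2 window (chr5:71095800-71096099, minus strand) held 25 CpG at 70.0% GC. The median over 32851 windows of 300 bases was 7 CpG and 52.7% GC, so the X-linked neighbours stood on opposite sides of it. Gabrq and Gabra2 each held 2 GC boxes and 1 CCAAT box, and Gabra3 held 2 CCAAT boxes and 1 TATA motif. A GC box was found in 35.7% of all windows, a CCAAT box in 37.4% and the TATA motif in 13.6%. The CRE (TGACGTCA), found in 1.79% of windows, and the E-box (CACGTG), found in 7.15%, had no match in any of the 3 windows shown. RefSeq gives Gabra3 a further start site, whose window overlaps the one shown and also holds 0 CpG.

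None of the 7 genes was called by limma (adjusted p under 0.05), and neither was any other gene (0% of 18410); edgeR also called 0. DESeq2 called none of the 7, beside 0.152% of all tested genes called by it (0.0163% called as higher in Hdac2 cKO). At an unadjusted p under 0.05 there was 1 member, Gabra3, beside 1.85% of all tested genes (0.875% higher and 0.978% lower in Hdac2 cKO). The groups did not overlap for 2 members, Gabra3 and Gabrq, both higher in Hdac2 cKO, beside 8.54% of all tested genes without overlap (4.63% higher and 3.91% lower). Without WT 3 the same 2 were higher without overlap, beside 9.22% of all tested genes. Log2 fold changes were above 0 for 5 members and below 0 for 2. Their median was 0.85, against 0.06 for all genes tested, of which 55.3% were above 0. Without WT 3 the median was 0.71, against -0.01 for all genes tested. The 7 genes were chosen with earlier results of these data known, so these contrasts are descriptions only. In whole-ganglion RNA, fewer cells of a type and less RNA per cell cannot be told apart. Markers of other cells moved with the groups in some lists only. Satellite glia markers had a median log2 fold change of -0.18 (2 higher, 4 lower) and macrophage markers 0.13 (3 higher, 3 lower). The 3 tested of 6 spinal cord markers had a median of -0.14 (1 higher, 2 lower). Without WT 3 these medians were -0.16, -0.26 and 0.20. In each of these lists 0 genes were without overlap. All 9 tested of 10 skeletal muscle markers were lower in Hdac2 cKO, with sums over the list of 129 to 1244 in Hdac2 cKO and 1823 to 9919 in WT. Their median log2 fold change was -3.45, and -4.18 without WT 3. All 8 myelinating Schwann cell markers were lower too, summing to 158998 to 227673 in Hdac2 cKO and 361188 to 374198 in WT. Their median was -0.86, and -0.66 without WT 3. No marker of either list was at 0 in all libraries. Their part in the subunit results was not tested.

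**Figure D1:**
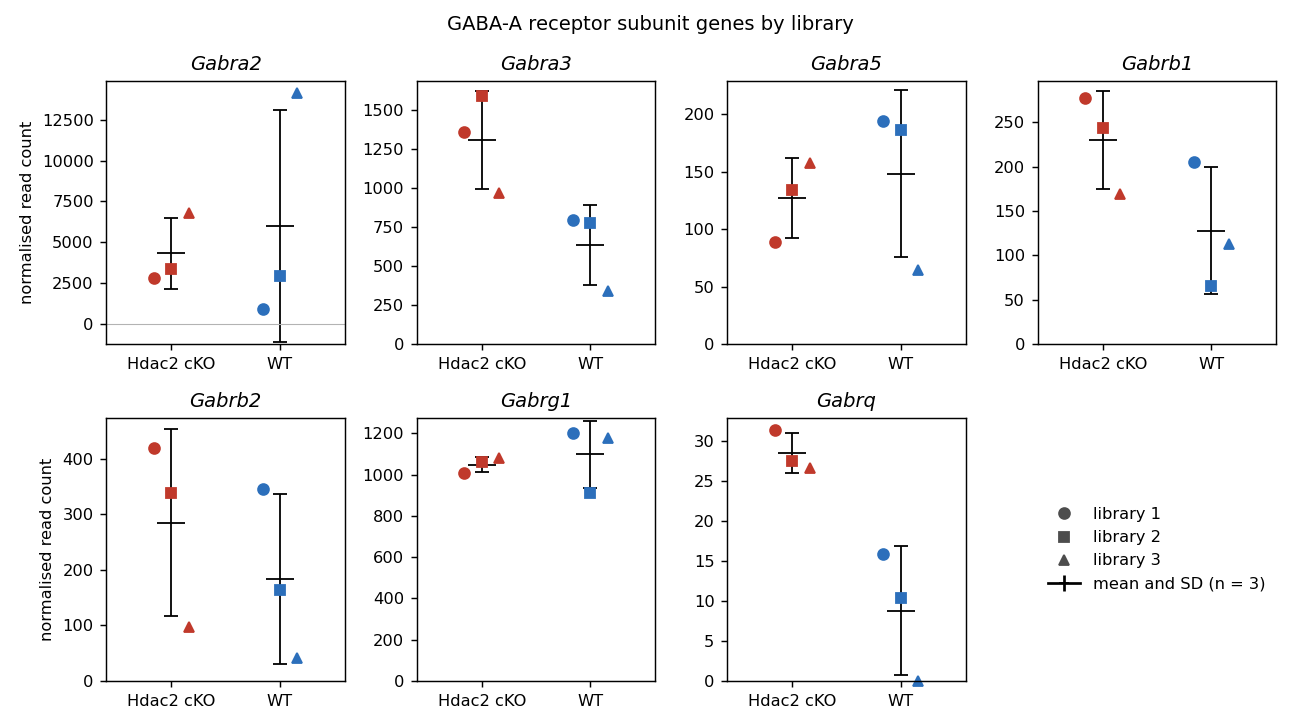
Normalised read count of each of the 7 subunit genes in every library (red, Hdac2 cKO; blue, WT; symbol, library number), with the mean and SD of 3 libraries per group. The Gabra3 and Gabrq points of Hdac2 cKO all lie above those of WT, and Gabra2 reached 14122 in WT 3.

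Gabra3 encodes the alpha3 subunit, which in the brain is found for instance on monoaminergic neurons and in the reticular thalamus. Normalised read counts were 1358, 1589 and 969 in Hdac2 cKO 1, 2 and 3, against 792, 773 and 340.4 in WT 1, 2 and 3. Every Hdac2 cKO library was above every WT library, and the libraries numbered 3 were the lowest of their groups. The means were 1306 ± 313 in Hdac2 cKO and 635 ± 256 in WT (SD, n = 3 each). On the log2 scale Gabra3 was 1.11 higher (SE 0.38), a fold of 2.15 with a 95% confidence interval of 1.16 to 4.003. It ranked 137 of 18410 genes by unadjusted p and was not called by limma (adjusted p = 0.927). By exact permutation (two-sided) p was 0.1, and 3 libraries against 3 cannot give a smaller one.

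The difference in Gabra3 had the same sign in all 23 alternatives tried, between 0.71 without WT 3 and 1.32 without WT 1. With WT 3 left out, only WT values of 792 and 773 remained (SE 0.23; limma adjusted p = 0.998). Leaving out both libraries numbered 3 gave 0.91 (SE 0.16; limma adjusted p = 0.221). Under array weights (4.17 for WT 2, 0.670 for WT 1 and 0.101 for WT 3) Gabra3 was called at 0.93 (limma adjusted p = 0.0254). That setting called 3.08% of all genes, and 1.69% of all genes in the direction of Gabra3. Gabra3 is X-linked, and transcripts of 4 Y-linked genes were present in Hdac2 cKO 2, WT 2 and WT 3 but summed to at most 7.06 normalised read counts in the other 3. With a term for these transcripts its log2 fold change was 1.08.

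Gabrq encodes theta, a subunit known from monoaminergic and hypothalamic neurons of the brain, where it can assemble with alpha3. Normalised read counts were 31.3, 27.5 and 26.6 in Hdac2 cKO 1, 2 and 3, against 15.9, 10.4 and 0 in WT 1, 2 and 3. These values rest on 31, 28 and 38 reads in Hdac2 cKO and on 18, 7 and 0 reads in WT. All Hdac2 cKO libraries were above all WT libraries, at the lowest level of any member. A count of 0 in WT 3 allows a level of up to 3.07 normalised read counts, counting error only. Gabrq was 2.35 higher on the log2 scale (SE 1.18; limma adjusted p = 0.927), with p = 0.1 by exact permutation (two-sided). Leaving out WT 3 gave 1.08 (SE 0.52; limma adjusted p = 0.998). The pseudocount moved the value as well, to 2.69 with 0.5 and to 1.51 with 5. With the term for Y-linked transcripts it was 1.95.

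Gabra2 encodes alpha2, an alpha subunit found in sensory neurons and at their spinal terminals. Normalised read counts were 2786, 3351 and 6800.3 in Hdac2 cKO 1, 2 and 3, against 895, 2917 and 14122 in WT 1, 2 and 3. The groups overlapped, with both the lowest and the highest library in WT. The spread between libraries was 15.8-fold, and 10.3% of tested genes spread more widely. In each group the library numbered 3 held the most Gabra2. The means were 4312 ± 2173 in Hdac2 cKO and 5978 ± 7125 in WT (SD, n = 3 each). On the log2 scale the estimate was 0.26 (95% confidence interval -1.89 to 2.41; limma adjusted p = 0.962), although the mean of the raw values was lower in Hdac2 cKO. It was 1.30 without WT 3, -0.69 without WT 1 and -0.12 without Hdac2 cKO 3, and -0.51 by DESeq2. These libraries thus give no stable direction for Gabra2.

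Gabra5 encodes alpha5, known in the hippocampus for tonic inhibition outside synapses. Normalised read counts were 88.9, 134 and 157 in Hdac2 cKO 1, 2 and 3, against 194, 186 and 64.4 in WT 1, 2 and 3. WT 1 and WT 2 were above all Hdac2 cKO libraries and WT 3 was below them. The log2 estimate was -0.11 (95% confidence interval -1.30 to 1.09; limma adjusted p = 0.971). Once WT 3 was left out the groups did not overlap and the estimate was -0.62 (SE 0.33; limma adjusted p = 0.998). Of all tested genes, 9.63% were lower without overlap in that setting. Gabra5 shared 148 bases of exon with Gm9962, an antisense gene that reached 15.3 normalised read counts. Strand use in the counting is not stated, so reads of the 2 genes cannot be told apart there.

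**Figure D2:**
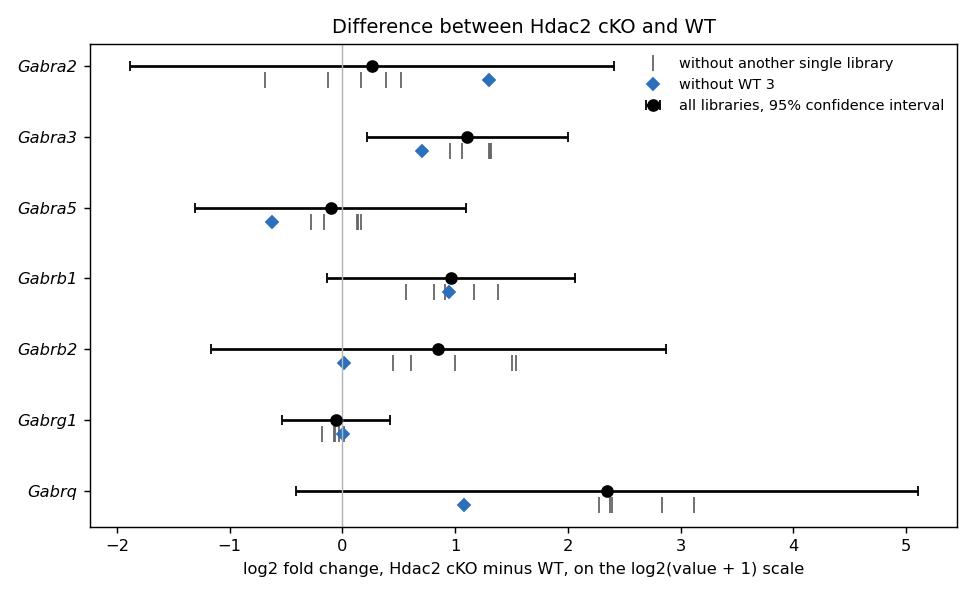
Log2 fold change of each subunit gene, Hdac2 cKO over WT after adding 1 to each value, with its 95% confidence interval (black), the value without WT 3 (blue) and the values without each other library (grey ticks). Only the interval of Gabra3 excludes 0 (unadjusted), and Gabra2, Gabra5 and Gabrg1 have ticks or diamonds on both sides of 0.

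The beta subunits help form the GABA binding site and are the targets of propofol and etomidate. Gabrb1 had 277, 244 and 169 normalised read counts in Hdac2 cKO 1, 2 and 3, against 206, 65.5 and 112 in WT 1, 2 and 3. WT 1 was above Hdac2 cKO 3, so the groups overlapped, while Hdac2 cKO 1 and 2 were above all WT libraries. Gabrb1 had a log2 estimate of 0.96 (SE 0.47, 95% confidence interval -0.13 to 2.06; limma adjusted p = 0.927). It was 0.95 without WT 3, and ranged from 0.56 without WT 2 to 1.38 without WT 1. Under array weights Gabrb1 was called at 1.68 (limma adjusted p = 0.0325), in a setting that called 3.08% of all tested genes (1.69% as higher in Hdac2 cKO). The heaviest weight (4.17) went to WT 2, the WT library with the lowest Gabrb1 (44 reads). Within the numbered pairs, a pairing that the labels do not state, Gabrb1 was higher in Hdac2 cKO in 3 of 3. The share of all tested genes that did so was not computed, so this count is no result about Gabrb1. With the replicate block the SE of Gabrb1 was 0.39 (limma adjusted p = 0.674). Gabrb1 shared 46 bases of exon with Gabra4 on the opposite strand.

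Gabrb2, a widespread beta subunit of the brain, had 419, 339 and 97.2 normalised read counts in Hdac2 cKO 1, 2 and 3, against 345, 164 and 40.9 in WT 1, 2 and 3. The groups overlapped, and the library numbered 3 was the lowest of each group, the reverse of the order seen for Gabra2. The spread between libraries was 10.3-fold. Its log2 estimate was 0.85 (95% confidence interval -1.16 to 2.87; limma adjusted p = 0.927), and 0.015 once WT 3 alone was left out. Within the numbered pairs, which the labels do not state, Gabrb2 was higher in Hdac2 cKO in 3 of 3. Gabra3 and Gabrq were too, while Gabra2, Gabra5 and Gabrg1 differed in sign between pairs. The share of all tested genes higher in every pair was not computed, and the pairing is uncertain. These pair counts are therefore no result about the members. With the replicate block the SE of Gabrb2 was 0.33 (limma adjusted p = 0.674), and leaving out both libraries numbered 3 gave 0.66.

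Gabrg1 encodes gamma1, a gamma subunit whose receptors respond weakly to classical benzodiazepines. Normalised read counts were 1006, 1060.5 and 1080 in Hdac2 cKO 1, 2 and 3, against 1202, 913 and 1179 in WT 1, 2 and 3. The Hdac2 cKO values lay inside the range of WT. Its spread between libraries was 1.32-fold, and 4.99% of tested genes spread less. The estimate was -0.06 on the log2 scale (SE 0.20, 95% confidence interval -0.53 to 0.42; limma adjusted p = 0.964), and 0.0015 without WT 3. The interval corresponds to folds of 0.691 to 1.34, so a 2-fold difference lies outside it. Gabra2, 115 kb away from Gabrg1 on the same strand of chromosome 5, varied 15.8-fold over the same libraries. Per kilobase of exon, the ratio of Gabra2 to Gabrg1 was 2.85, 3.25 and 6.49 in Hdac2 cKO 1, 2 and 3, and 0.767, 3.29 and 12.3 in WT 1, 2 and 3. The highest ratio of each group was thus in the library numbered 3.

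Levels of different genes were compared per kilobase of exon, with exon lengths of 2974 to 13838 bases. In Hdac2 cKO Gabra2 averaged 564 ± 284, Gabra3 333 ± 79.8 and Gabrg1 133 ± 4.85 normalised read counts per kilobase (SD, n = 3). In WT Gabra2 averaged 782 ± 933, Gabra3 162 ± 65.1 and Gabrg1 140 ± 20.4. Without WT 3, WT averaged 249 for Gabra2, 199 for Gabra3 and 134 for Gabrg1 (n = 2), so the WT mean of Gabra2 was then below that of Hdac2 cKO. Below these came Gabrb2 at 44.8 ± 26.4, Gabra5 at 42.6 ± 11.7, Gabrb1 at 16.6 ± 3.98 and Gabrq at 5.32 ± 0.469 per kilobase in Hdac2 cKO. In WT Gabrb2, Gabra5, Gabrb1 and Gabrq averaged 28.8 ± 24.1, 49.8 ± 24.4, 9.24 ± 5.15 and 1.64 ± 1.51. Ranges of neighbours in the Hdac2 cKO order overlapped for Gabra2 with Gabra3 and for Gabrb2 with Gabra5, and were apart elsewhere. In WT, Gabra2 overlapped Gabra3, Gabra3 overlapped Gabrg1, Gabra5 overlapped Gabrb2 and Gabrb2 overlapped Gabrb1. Without WT 3 the first of these overlaps remained and the other 3 pairs were apart. The order also depended on the length used. Per kilobase of the longest coding transcript, Gabrg1 averaged 220 ± 7.99 in Hdac2 cKO and 230 ± 33.7 in WT (SD, n = 3 each). On that length Gabra3 averaged 357 ± 85.5 in Hdac2 cKO and 173 ± 69.8 in WT, so in WT it came below Gabrg1. The Hdac2 cKO order of means was the same on both lengths, and the ratios of Gabra2 and Gabra3 to Gabrg1 are lower per coding transcript. By exon length, Gabrq was the lowest of the 7 in all 6 libraries. Gabra2 was the highest in 5 of 6, the exception being WT 1, where Gabra3 was highest.

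**Figure D3:**
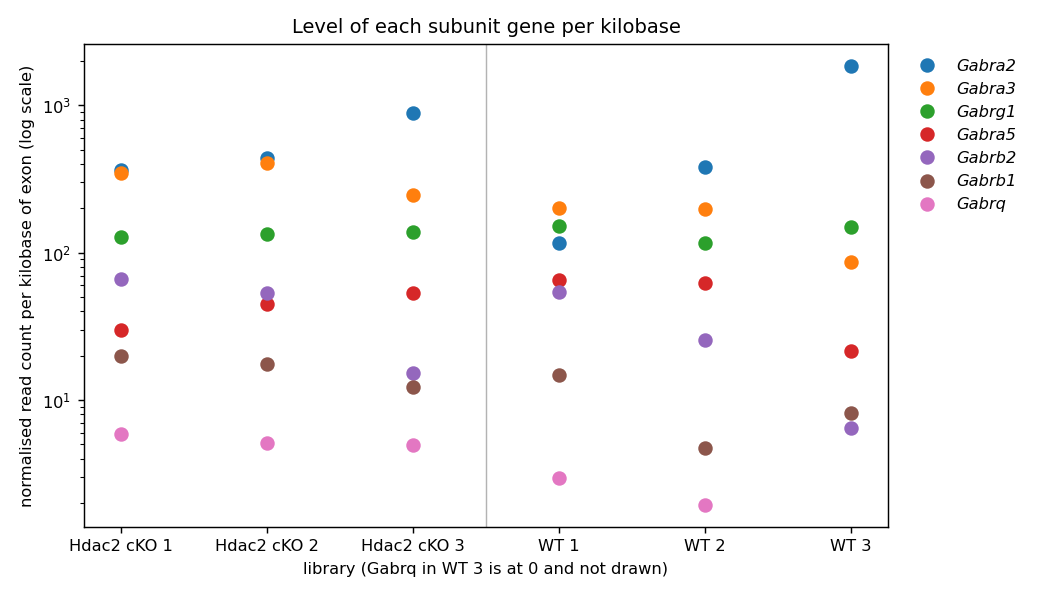
Normalised read count per kilobase of exon of the 7 subunit genes in each library, on a log axis. Gabrg1 stays between 116 and 153, while Gabra2 spans 117 to 1848 and exceeds the other 6 genes in all libraries but WT 1.

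The mix of the 3 alpha genes varied widely within each group. Gabra3 made up 46.7, 45.6 and 20.8% of the summed per-kilobase level of Gabra2, Gabra3 and Gabra5 in Hdac2 cKO 1, 2 and 3. Its share was 52.5, 30.7 and 4.43% in WT 1, 2 and 3. The groups overlapped, and the share was lowest in the library numbered 3 of each group, where Gabra2 was highest. Relative to Gabrg1, the most even member, Gabra3 per kilobase was 2.71, 3.01 and 1.80 in Hdac2 cKO 1, 2 and 3, and 1.32, 1.70 and 0.579 in WT 1, 2 and 3. On this ratio all Hdac2 cKO libraries were above all WT libraries, most narrowly Hdac2 cKO 3 (1.80) over WT 2 (1.70). Gabrg1 was picked for its evenness in these same data, so the ratio largely repeats the Gabra3 values and is no separate result.

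Genes with the pattern most like that of Gabra3, the member with the smallest p, were Orc2 (Pearson r = 0.992), Ahrr (0.990) and Mlkl (0.990), over 6 libraries on the log2 scale. Without WT 3 these were 0.984, 0.966 and 0.971 over 5 libraries. For Gabra2, the member with the highest mean level per kilobase, they were 6330562C20Rik (r = 0.994), Gm3764 (0.994) and Pvr (0.987). With 6 libraries, 179 genes reached an r above 0.95 with Gabra3 and 84 with Gabra2, and the libraries share their depth and their groups, so these are descriptions.

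Across the other genes of GABA signalling, limma called 0 of the 45 tested genes in 6 lists. The lists cover the machinery that makes, places and serves the receptor. Of the 12 other GABA-A subunit genes 7 were tested, and their median log2 fold change was 0.05 (4 higher, 3 lower; 1 higher without overlap), and 0.08 without WT 3. Gabre, the X-linked epsilon subunit, had 41.4, 20.6 and 46.9 normalised read counts in Hdac2 cKO 1, 2 and 3, against 26.5, 25.3 and 0 in WT 1, 2 and 3. Its groups overlapped, and its log2 fold change of 1.98 (SE 1.35; limma adjusted p = 0.927) was 0.39 without WT 3. Of 17 assembly and anchoring genes, 8 were higher and 9 lower, with a median of -0.02 (-0.13 without WT 3) and overlapping groups throughout. Among them Shisa7, an auxiliary subunit of GABA-A receptors, was at 0.74 (SE 0.41) on the log2 scale, and at 0.46 without WT 3. Clptm1, which holds subunits in the endoplasmic reticulum, was at -0.48 (SE 0.27), and at -0.22 without WT 3.

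Of the 10 genes of GABA synthesis, transport and breakdown 8 were tested, with a median log2 difference of 0.29, or -0.13 leaving out WT 3. The 6 genes of GABA-B receptors and their partners had a median of 0.59, which was 0.07 without WT 3. Kctd8, a GABA-B receptor partner, averaged 1719 ± 247 in Hdac2 cKO and 1299 ± 307 in WT (SD, n = 3 each) without overlap (limma adjusted p = 0.927). Its log2 fold change was 0.42, and 0.21 without WT 3. Of 5 glycine receptor genes 2 were tested. Glrb, the beta subunit that anchors glycine receptors, averaged 5458 ± 590 in Hdac2 cKO and 4336 ± 1239 in WT, with overlap (0.37 on the log2 scale, 0.12 without WT 3). The 5 chloride cotransporter genes, which set the direction of the GABA current, had a median of 0.10, and 0.06 without WT 3. Slc12a5, the chloride exporter KCC2, stood at 87.9, 84.5 and 86.0 in Hdac2 cKO 1, 2 and 3 and at 47.6, 58.1 and 79.7 in WT 1, 2 and 3, without overlap (0.50 on the log2 scale, 0.70 without WT 3). Slc12a4, the exporter KCC1, averaged 905 ± 53.8 in Hdac2 cKO and 1377 ± 335 in WT, lower without overlap (-0.58 on the log2 scale, SE 0.23; limma adjusted p = 0.927), and -0.39 without WT 3. With 7 tested genes in each, the median was 0.85 for the subunits described first and 0.05 for the other subunits. The subunits described first were chosen with earlier results of these data known. This difference is therefore a description, and it was not tested.

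**Figure D4:**
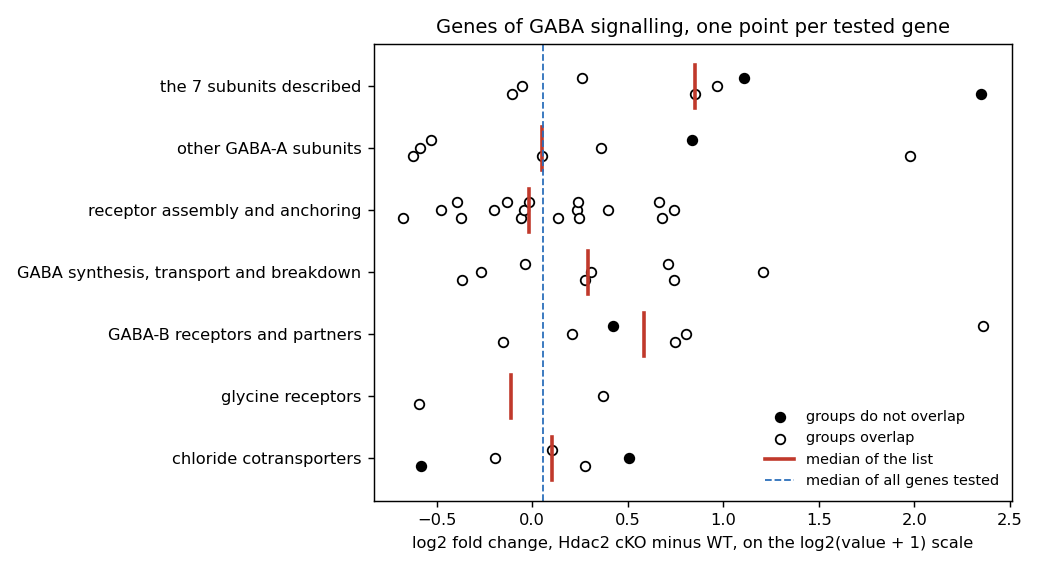
Log2 fold change (Hdac2 cKO over WT, after adding 1 to each value) of each tested gene of GABA signalling by list, with the list median (red) and the median of all genes tested (dashed, 0.06). Filled points are genes whose groups do not overlap, among them Gabra3 at 1.11 and Gabrq at 2.35.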

How the data were processed

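The deposited table held 1 signal value per gene and library for 54532 genes. HISAT2, SAMtools, featureCounts and DESeq2 with mm10 are named in the submitters' processing notes; no version, annotation, strand or counting option is given in the sources used here. In these deposited signal values each library's reads per gene had been scaled by a single number, since multiples of the value of 1 read accounted for 100% of values (tolerance 0.01 reads). Columns were matched to samples by name, and 54409 identifiers matched GENCODE release M21, which gave symbols, exon lengths and locations. Of genes with 1 to 20 reads, 42.4% had an even count in WT 2, against 60.2 to 64.4% in the other 5 libraries. WT 2 also had the heaviest array weight (4.17), in the setting that called Gabra3 and Gabrb1. The effect on the values and on these calls was not tested.

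The test used limma 3.58.1 (R 4.3.3; trend and robust options) on log2 (value + 1) of 18410 genes, those that reached 10 in 3 or more libraries, all 7 subunit genes among them. Two-sided p-values took the Benjamini-Hochberg adjustment over all genes tested (threshold 0.05). The added 1 shrinks the fold changes of weakly expressed genes compared with a smaller pseudocount. Gabrq, at 0 in WT 3, was still higher by limma (2.35 on the log2 scale) than by DESeq2 (1.70) or edgeR with TMM scaling (1.68). The 23 alternatives were edgeR 4.0.16 (TMM, RLE and block), DESeq2 1.42.0 and limma-voom on recovered reads, other scalings, pseudocounts and filters, gene length correction, array weights, a term for 4 Y-linked genes, the replicate block, and leaving out libraries. The functions were tested on simulated data with 200 changed genes.

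Deviations from the group means correlated by 0.401, 0.147 and 0.422 across genes for libraries numbered 1, 2 and 3. All were over 0.1, and pairing by library number was tried only as an alternative, the replicate block. The main fit used no pairing, and the labels state none. Hdac2 cKO 2 correlated more with WT 1 (0.342) than with WT 2 (0.147), so the pairing is uncertain. Within a group no 2 libraries looked like 1 library deposited again: their reads differed by a chi-square of 15.9 to 277 per degree of freedom, where sampling noise alone gives about 1. The members and gene lists were chosen with earlier results of these data known. Named genes were the 7 subunit genes, up to 2 genes per other list with the smallest p where none passed, and the 3 genes most like 2 of the members; some genes under this rule are not reported here.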

Additional observations from a re-analysis of the deposited data

How the results depend on the processing

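Of the 7 subunit genes none was called in 22 of 23 alternatives. With array weights 2 were called (Gabra3 and Gabrb1), beside 3.08% of all tested genes. Over all genes, limma called 0, DESeq2 28, array weights 567 and limma without both libraries numbered 3 called 5; without replicates in turn the count was 0 throughout. The replicate block, which pairs the libraries by number, changed no call (0 genes by limma and 0 by edgeR). With it Gabra3 had a log2 fold change of 1.11 (SE 0.22; limma adjusted p = 0.674). Gabra3, Gabrb1, Gabrb2 and Gabrq kept their direction in every alternative. Gabra2 turned to -0.52 with edgeR and TMM scaling, -0.51 with edgeR and RLE scaling and -0.51 with DESeq2, and ranged from -0.69 to 1.30 when single libraries were left out. Gabra5 ranged from -0.62 to 0.17 and Gabrg1 from -0.18 to 0.015 in the same way, and Gabrg1 was 0.13 with array weights. Gabrb2 ranged from 0.015 to 1.54. Leaving out both libraries numbered 3 gave 0.92 for Gabra2, 0.91 for Gabra3, -0.80 for Gabra5 and 1.15 for Gabrb1. It gave 0.66 for Gabrb2, -0.02 for Gabrg1 and 1.13 for Gabrq. The median over the 7 genes stayed between 0.52 and 1.32. A filter of 50 left out Gabrq. The causes were not tested. Depth limits Gabrq, which rested on at most 38 reads.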

Other observations

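Genes beside the subunit genes were described by position, in windows of 500 kb on each side chosen after the values were seen. The 7 subunit genes themselves were not counted in these windows. Gabra3 and Gabrq lie within each other's windows (168 kb apart), as do Gabrg1 and Gabra2 (115 kb apart). Of all tested genes, 4.63% were higher and 3.91% lower without overlap. Around Gabra3, 8 other tested genes had a median log2 fold change of -0.09, from -0.59 to 1.98, with 0 higher and 1 lower without overlap. Around Gabrq, 9 had a median of -0.10, also with 0 higher and 1 lower without overlap, and these windows share genes. Around Gabrb1, 7 had a median of 0.11, with 1 higher and 0 lower without overlap. Around Gabrb2 there were 2, both above 0, with a median of 0.44 and 1 higher without overlap. The windows of Gabra2, Gabra5 and Gabrg1 held 1, 2 and 0 other tested genes, none without overlap. None of these genes was called by limma.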
